A study of Mus musculus with 6 samples.

Results

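Mitochondrial carriers are the transporters of the Slc25 family, and sideroflexins (Sfxn) are a separate family of transporters of the mitochondrial membrane. All probes whose platform gene symbol, or the current symbol for it, begins with Slc25a or Sfxn and a digit were taken. This gave 47 genes with 1 probe each, 42 carriers and 5 sideroflexins, of 16390 named genes on the array. Of the 47 probes, 34 carried the current symbol and 13 an older name. Family members with other symbols, such as the uncoupling proteins Ucp1, Ucp2 and Ucp3, are described among the related genes.

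The RNA came from testis of C57/BL6 mice and was measured on 6 arrays in 3 groups of 2. The MVH group is RNA recovered with an anti-MVH antibody, the IgG group is RNA recovered with normal rabbit IgG, and the WCE group is testis RNA with no antibody step, called total RNA here. MVH is the mouse homologue of Vasa, an RNA helicase found in germ cells and also named DDX4. Its antibody brings down the helicase together with RNA held to it, and the IgG precipitate shows what comes down without that specificity. Per the labels' protocols, a lysate was made from the dispersed cells of 2 testes, which hold germ cells together with Sertoli, Leydig and other somatic cells. Nothing in the labels ties arrays 1 and 2 of a group to different animals, and p-values therefore reflect a spread among samples that may be only technical.

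Carriers of the Slc25 family sit mostly in the inner mitochondrial membrane and exchange nucleotides, phosphate, carboxylic acids, amino acids and cofactors between the matrix and the cytosol. Sideroflexins lie in the same membrane, and the best-known members import serine for one-carbon metabolism. In the testis, germ cells change their mitochondria and their fuels as they mature, and Leydig cells use mitochondria for the first step of steroid synthesis. All of these proteins are made from nuclear mRNAs.

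The intensities given here were scaled to an array median of 30, and differences are on the log2 scale. Each array listed between 22090 and 22965 of 23473 probes. The number of arrays limits the precision. Of the 47 genes, 46 were listed on all 6 arrays. The exception was Slc25a37, a mitochondrial iron importer, which was blank on IgG 1 and WCE 1 and dim elsewhere, at 1.3 and 2.5 with MVH, 3.61 on IgG 2 and 2.6 on WCE 2, and it was not tested. Another 14 genes had a mean below the array median. The gap between the 2 arrays of a group had a median of 0.29 with MVH, 0.37 with IgG and 0.23 in total RNA over the 46 genes, against 0.29, 0.36 and 0.28 over 21241 probes. Germ cell markers had a summed intensity of 265790 to 347710 with MVH, 248930 to 327683 with IgG and 289409 to 316092 in total RNA over 11 of 12 markers. Prm1, Prm2 and Tnp1, which lie near the top of the scale, make up most of these sums. On each total RNA array Prm2 and Tnp1 shared the highest listed value, 74564.4 on WCE 1 and 77409.9 on WCE 2. The sums therefore may not show differences between groups. Dazl was near the array median, at 30.7 to 60.7 over the 6 arrays.

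In the MVH precipitate, relative to the IgG precipitate, 2 carrier genes were higher and 2 sideroflexin genes were lower. The mitochondrial S-adenosylmethionine carrier gene Slc25a26 was 2.21-fold and the uncoupling-protein relative Slc25a30 2.43-fold higher. The serine transporter genes Sfxn3 and Sfxn1 were 9.08-fold and 2.68-fold lower. In limma's fit over all probes, with Benjamini-Hochberg adjusted p-values and a threshold of 0.05, these 2 and 2 of 46 genes are 4.35% either way, beside 3.82% of all probes called higher and 4.15% called lower. The shares lie near the background. At an unadjusted p under 0.05 there were 9 of 46 genes, beside 25.5% of all probes, and 6 differed at least 2-fold, beside 14.6%. The median difference was 0.05 over the 46 genes and 0.07 over all 21574 probes tested, and the median size of the difference was 0.42 and 0.40. How much RNA each precipitation yielded cannot be read from centred arrays. Lower recovery of an RNA in a precipitation, fewer cells of a type in the lysate and less RNA per cell cannot be told apart.

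**Figure D1:**
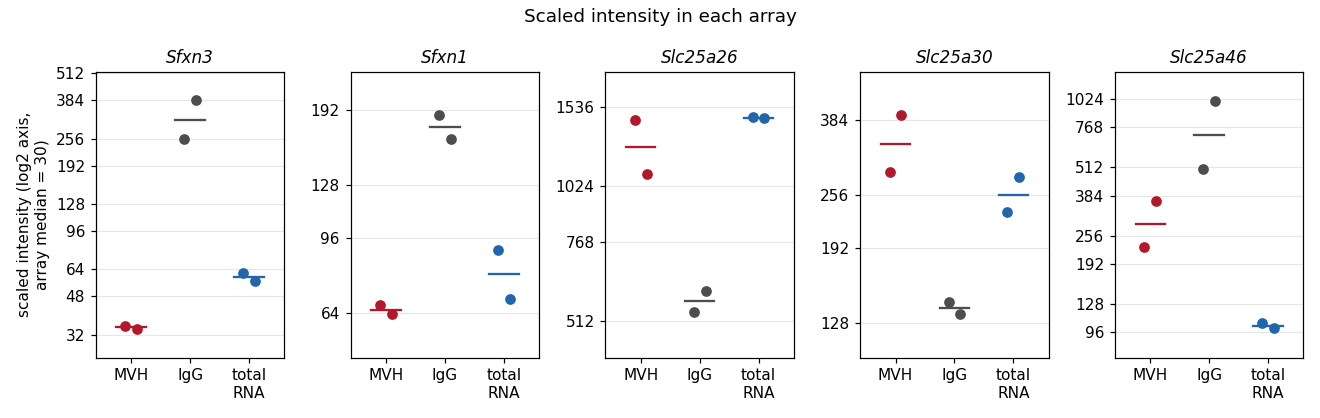
Scaled intensity (log2 axis, array median 30, each panel with its own range) of 5 genes on the 2 arrays of each group, with points for arrays and a line for the mean of the log2 values. Both IgG arrays of Sfxn3 and Sfxn1 sit above all other arrays and both of Slc25a26 and Slc25a30 below them, while the 3 groups of Slc25a46 do not overlap.

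Sfxn3 had scaled intensities of 35.1 and 34.0 on the MVH arrays, 256.2 and 383.9 on the IgG arrays, and 61.5 and 56.6 for total RNA. Both MVH arrays lay below both total RNA arrays, and both IgG arrays far above all others. The difference between the precipitates was -3.18 ± 0.29 (SE, n = 2 per group, limma adjusted p = 0.0112). Sfxn1, the best-studied serine importer of mitochondria, had intensities of 66.6 and 63.6 on the MVH arrays, 186 and 164 on the IgG arrays, and 89.8 and 69.1 for total RNA. The order of the groups was the same as for Sfxn3, with a smaller gap (-1.42 ± 0.28, SE, n = 2 per group, limma adjusted p = 0.0242).

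The other sideroflexins did not pass. Sfxn4, which is needed to assemble the first complex of the respiratory chain, was dim, with 11.6 and 12.4 on the MVH arrays, 9.4 and 5.91 on the IgG arrays, and 10.7 and 10.4 for total RNA. Its MVH arrays lay slightly above the rest (0.69 ± 0.30, limma adjusted p = 0.198). Sfxn2, which has been linked to iron handling, was dimmer still, at 4.7 and 4.8 on the MVH arrays, 7.5 and 5.91 on the IgG arrays, and 7.2 and 2.1 for total RNA. Its groups overlapped apart from MVH and IgG (-0.49 ± 0.50, limma adjusted p = 0.597), and its 2 total RNA arrays differed by 1.78 on the log2 scale, the widest gap of the 46 genes in that group. Sfxn5 had 16.8 and 15.1 on the MVH arrays, 15.5 and 13.7 on the IgG arrays, and 17.8 and 14.8 for total RNA, so that all groups overlapped (0.13 ± 0.27, limma adjusted p = 0.814). The family therefore held 2 genes that were lower with MVH than with IgG and 3 that did not pass. Against total RNA, Sfxn3 differed by -0.77 with MVH and by 2.41 with IgG, and Sfxn1 by -0.28 and 1.15. None of these differences from total RNA passed.

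The promoter windows of Sfxn3, Sfxn1 and Slc25a30 are shown as sequence context for 3 of the 4 called genes. The window of Slc25a26 was not used here. The arrays measured RNA and not promoter activity. Each window runs from 250 bases before to 50 bases after the start of the gene in RefSeq, mouse build GRCm38.p6, and is written 5′ to 3′ on the strand of the gene. Sfxn3 lies at chr19:45047326-45047625 on the plus strand, Sfxn1 at chr13:54071595-54071894 on the plus strand and Slc25a30 at chr14:75786988-75787287 on the minus strand. Capitals mark the GC box GGGCGG and the ETS motif CCGGAAG, on either strand.
Sfxn3: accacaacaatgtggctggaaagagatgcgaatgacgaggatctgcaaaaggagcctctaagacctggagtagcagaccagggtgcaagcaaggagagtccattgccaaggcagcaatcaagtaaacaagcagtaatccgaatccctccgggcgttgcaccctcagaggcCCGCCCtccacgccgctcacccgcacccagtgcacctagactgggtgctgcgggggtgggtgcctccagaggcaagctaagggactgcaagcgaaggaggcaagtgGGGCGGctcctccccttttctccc
Sfxn1: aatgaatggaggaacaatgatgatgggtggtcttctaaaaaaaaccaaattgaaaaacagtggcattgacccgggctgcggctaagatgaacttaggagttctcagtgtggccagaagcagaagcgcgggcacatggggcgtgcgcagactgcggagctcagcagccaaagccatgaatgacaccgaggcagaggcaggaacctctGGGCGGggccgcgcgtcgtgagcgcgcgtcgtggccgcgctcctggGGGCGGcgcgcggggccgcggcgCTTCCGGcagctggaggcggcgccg
Slc25a30: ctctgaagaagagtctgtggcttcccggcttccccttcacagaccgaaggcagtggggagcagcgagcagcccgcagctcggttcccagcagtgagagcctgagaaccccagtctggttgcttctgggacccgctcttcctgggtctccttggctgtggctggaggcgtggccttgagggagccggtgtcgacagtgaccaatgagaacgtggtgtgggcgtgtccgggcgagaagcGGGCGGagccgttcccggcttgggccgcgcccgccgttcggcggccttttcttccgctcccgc
The Sfxn3 and Sfxn1 windows held 2 GC boxes each and the Slc25a30 window 1, and Sfxn1 also held 1 ETS motif, with no overlap between them. The palindromic NRF1 motif and the cyclic AMP response element TGACGTCA, searched on both strands, had no match in these 3 windows. Of 46 windows of 37 of the genes, 37 (80.4%) held a GC box, against 35.7% of all 32851 windows, 8 (17.4%) held the ETS motif, against 8.86%, and 2 (4.35%) the cyclic AMP response element, against 1.79%. None held the NRF1 motif, which was found in 0.971% of all windows. The 3 windows printed were chosen after these counts had been seen, and a match is not a binding site.

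Slc25a26 had scaled intensities of 1437 and 1091 on the MVH arrays, 536 and 599 on the IgG arrays, and 1461 and 1453 for total RNA. S-adenosylmethionine, its cargo, is the methyl donor for mitochondrial RNA, DNA and proteins. Both MVH arrays lay below both of total RNA, MVH 1 by little, and both IgG arrays below all others (1.14 ± 0.28, SE, n = 2 per group, limma adjusted p = 0.041). Slc25a30 had 290 and 393 on the MVH arrays, 144 and 134 on the IgG arrays, and 234 and 281 for total RNA. Here the MVH arrays were the highest and the IgG arrays the lowest (1.28 ± 0.28, limma adjusted p = 0.0328).

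These 4 calls changed with the arrays in the fit. A single total RNA array adds nothing to the estimate of the spread, so leaving out WCE 1 or WCE 2 repeated the fit of only the 4 arrays for these calls. They numbered 0 and 0 when MVH 2, WCE 1 or WCE 2 was left out or when only the 4 arrays compared were fitted, and 0 probes of the whole table were then called. Without MVH 1, 0 genes were higher and 1, Sfxn3, was lower. Without IgG 1, 0 were higher and 3 lower, Sfxn3 (-3.47, adjusted p = 0.0117), Slc25a35 (-1.74, adjusted p = 0.044) and Slc25a46 (-1.80, adjusted p = 0.0401). Without IgG 2, 1 was higher, the glutathione carrier gene Slc25a40 (1.43, adjusted p = 0.0437), and 2 were lower, Sfxn3 and Sfxn1. Slc25a40 is named after its values were seen, and its IgG arrays disagreed, at 13.5 on IgG 1 and 46.9 on IgG 2. The Sfxn3 difference stayed between -3.47 and -2.89 over 15 alternatives (adjusted p 9.52e-05 to 0.103), Sfxn1 between -1.52 and -1.16 (0.0037 to 0.129), Slc25a26 between 0.94 and 1.41 (0.00978 to 0.194) and Slc25a30 between 1.06 and 1.55 (0.00728 to 0.18).

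**Figure D2:**
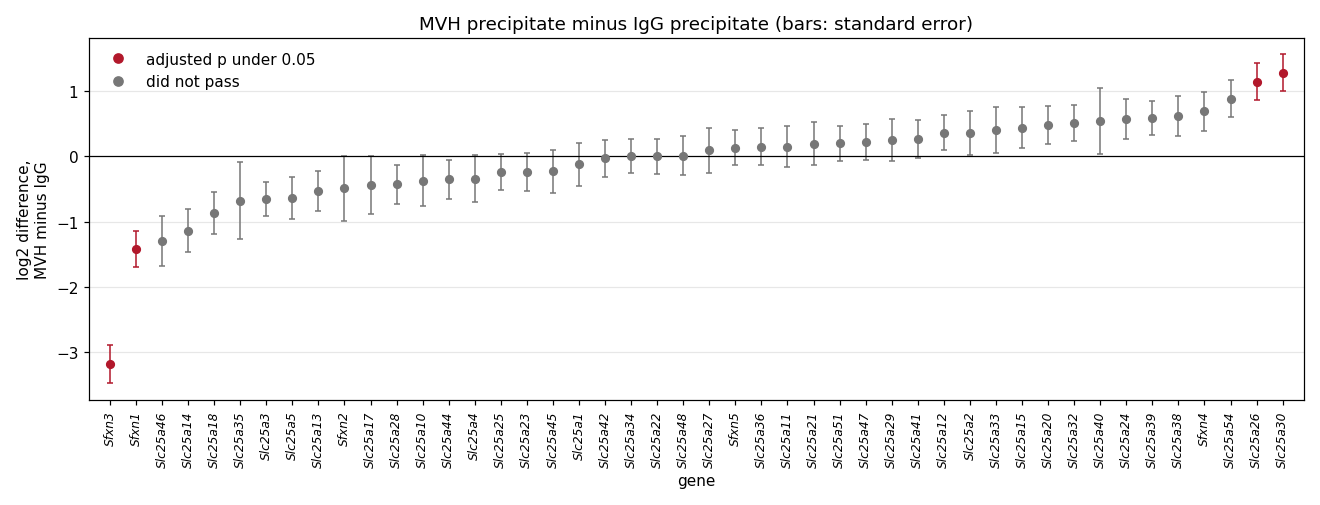
Log2 difference of MVH minus IgG for each of the 46 genes tested, in order, with bars for the standard error and red for an adjusted p under 0.05. Sfxn3, at -3.18, stands farthest from 0, Sfxn1 follows on the same side at -1.42, and the 2 genes called higher are at the right end, at 1.14 and 1.28.

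Several other genes had large differences between the precipitates that did not pass. Slc25a46, an outer membrane protein of mitochondrial fission, had scaled intensities of 228 and 365 on the MVH arrays, 505 and 1003 on the IgG arrays, and 105 and 99.8 for total RNA. No group overlapped another, and the MVH arrays lay between the IgG arrays and total RNA (-1.30 ± 0.38 from IgG, limma adjusted p = 0.0727). It passed in 5 of 15 alternatives, among them without IgG 1 (-1.80, adjusted p = 0.0401). Slc25a14, another uncoupling-protein relative, had 125 and 174 on the MVH arrays, 399 and 266 on the IgG arrays, and 150 and 209 for total RNA. Its IgG arrays were above the rest (-1.14 ± 0.33, limma adjusted p = 0.0701), and it passed in 3 of 15 alternatives.

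Among the amino acid carriers, the glutamate carrier gene Slc25a18 had 36.6 and 45.3 on the MVH arrays, 91.1 and 60.6 on the IgG arrays, and 48.7 and 36 for total RNA. Its IgG arrays were again above all others (-0.87 ± 0.32, limma adjusted p = 0.13). The opposite pattern was seen in Slc25a54, whose transported compound is less well known, with 2744 and 3722 on the MVH arrays, 1736 and 1731 on the IgG arrays, and 3781 and 4061 for total RNA. Both IgG arrays lay below the rest (0.88 ± 0.28, limma adjusted p = 0.0866), and it passed in 3 of 15 alternatives. Slc25a35 had 140 and 102 on the MVH arrays, 91.6 and 399 on the IgG arrays, and 143 and 209 for total RNA. Its IgG arrays disagreed by 2.12 on the log2 scale, the widest gap of any of the 46 genes, so that the difference of -0.68 ± 0.59 (limma adjusted p = 0.526) was -1.74 without IgG 1 (adjusted p = 0.044) and 0.38 without IgG 2 (adjusted p = 0.599).

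None of the carriers of the energy supply passed. Slc25a5, an exchanger of ADP for ATP, had 850 and 1223 on the MVH arrays, 1983 and 1281 on the IgG arrays, and 1178 and 1194 for total RNA. Its IgG arrays were the highest, by a small margin on IgG 2 (-0.64 ± 0.32, limma adjusted p = 0.253). Slc25a4, the isoform of muscle and heart, had 226 and 287 on the MVH arrays, 344 and 304 on the IgG arrays, and 146 and 285 for total RNA (-0.34 ± 0.36, limma adjusted p = 0.601). Slc25a3, which brings in phosphate for ATP synthesis, had 3818 and 3440 on the MVH arrays, 6125 and 5334 on the IgG arrays, and 4350.2 and 4223 for total RNA. Here MVH was lowest and IgG highest with no overlap (-0.66 ± 0.26, limma adjusted p = 0.158). The germ cell form of the ADP/ATP carrier, Slc25a31, was not analysed here.

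Most other cargo groups held differences of both signs and no called gene. The 10 amino acid carriers had a median difference between the precipitates of 0.31 (range -0.87 to 1.14), and they include the aspartate and glutamate exchangers Slc25a12 (0.36) and Slc25a13 (-0.53) and the glycine carrier Slc25a38 (0.62), with only Slc25a26 called. The 6 carriers of other nucleotides, coenzymes and vitamins had a median of 0.17 (-0.44 to 0.51), the 4 of di-, tri- and oxocarboxylates 0.01 (-0.37 to 0.19) and the 4 ATP-Mg/phosphate carriers 0.01 (-0.24 to 0.57). The citrate carrier gene Slc25a1, at -0.12, and the oxoglutarate carrier gene Slc25a11, at 0.15, were among the closest to 0. The glutathione carrier genes Slc25a39 and Slc25a40 differed by 0.59 and 0.54 and the iron importer gene Slc25a28 by -0.43. The acylcarnitine carrier gene Slc25a20 differed by 0.48. None of these passed, and an adjusted p above the threshold does not show that the groups were alike. By the arrays alone, 14 of the 46 genes were higher on both MVH arrays than on both IgG arrays and 13 lower (30.4% and 28.3%), beside 29.9% and 23.8% of all probes.

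Against total RNA, the MVH precipitate held no called gene of the 46 (0.00459% of all probes were called higher and 0.00918% lower). At an unadjusted p under 0.05 in limma there were 2, Sfxn3 and Slc25a46, beside 8.93% of all probes. Both MVH arrays were above both of total RNA in 10 genes (21.7%, beside 18.7% of all probes) and below in 6 (13%, beside 21.6%), and 1 gene differed at least 2-fold (beside 3.84%). The median difference was 0.02 over the 46 genes and -0.02 over 21793 probes, and its median size was 0.22 and 0.24. Slc25a46 had the largest difference, 1.49 ± 0.38 (SE, n = 2 a group, limma adjusted p = 0.282), where both MVH arrays were above both of total RNA. Sfxn3 was next at -0.77 ± 0.29 (limma adjusted p = 0.475), with both MVH arrays below both of total RNA, and Sfxn1 differed by -0.28 ± 0.28.

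The other differences of MVH from total RNA were smaller than 0.6. Slc25a39 had 1406 and 1469.8 on the MVH arrays, 1030.4 and 884 on the IgG arrays, and 947 and 1008 for total RNA. Both MVH arrays lay above all others (0.56 ± 0.26 from total RNA, limma adjusted p = 0.59). Slc25a35 differed from total RNA by -0.54 ± 0.59 and Slc25a30 by 0.40 ± 0.28 (limma adjusted p = 0.916 and 0.801). Slc25a45, whose cargo is less well known, had 24 and 28 on the MVH arrays, 39.8 and 23.1 on the IgG arrays, and 16.5 and 20.6 for total RNA (0.49 ± 0.33 from total RNA, limma adjusted p = 0.777). Its total RNA arrays were the lowest of the 6.

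Of the remaining genes, Slc25a38 had 74.9 and 66.5 on the MVH arrays, 58.6 and 35.8 on the IgG arrays, and 53.3 and 53 for total RNA (0.41 ± 0.31, limma adjusted p = 0.824). The ATP-Mg/phosphate carrier gene Slc25a24 had 14.8 and 14.6 on the MVH arrays, 12.8 and 7.64 on the IgG arrays, and 11.1 and 11.1 for total RNA (0.41 ± 0.31, limma adjusted p = 0.83). In both, the MVH arrays were above the other 4. The uncoupling-protein relative Slc25a27 was dim, with 10.5 and 12 on the MVH arrays, 7.7 and 14.4 on the IgG arrays, and 8.2 and 7.9 for total RNA (0.48 ± 0.34, limma adjusted p = 0.795). The pyrimidine nucleotide carrier gene Slc25a33 had 989 and 924 on the MVH arrays, 597 and 876 on the IgG arrays, and 934 and 1616 for total RNA (-0.36 ± 0.35, limma adjusted p = 0.886). Its total RNA arrays disagreed, and without WCE 2 the difference was 0.03.

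For IgG against total RNA the median size of the difference over the 46 genes was 0.28, beside 0.35 over all 21413 probes, and the median difference was 0.02 and -0.10. This comparison and the one before share the total RNA arrays. None of the 46 genes passed in limma (0.00934% of all probes were called higher and 0.0% lower), with 8 at an unadjusted p under 0.05, beside 18.2% of all probes. The IgG arrays were above those of total RNA in 10 genes (21.7%, beside 20.0% of all probes) and below in 9 (19.6%, beside 29.6%), and 5 genes differed at least 2-fold (beside 8.66%). Slc25a46 differed by 2.80 ± 0.38 and Sfxn3 by 2.41 ± 0.29 (SE, n = 2 per group, limma adjusted p = 0.0542 for both), values just outside the threshold. Each passed in 7 of 15 alternatives, with adjusted p-values from 0.00197 to 0.349 for Slc25a46 and 0.00166 to 0.349 for Sfxn3, and both did so without IgG 1 (3.29 and 2.70, adjusted p = 0.0312). Sfxn1 differed by 1.15 ± 0.28 (limma adjusted p = 0.0893), Slc25a26 by -1.36 ± 0.28 (limma adjusted p = 0.0662) and Slc25a54 by -1.18 ± 0.28 (limma adjusted p = 0.0859), each past the threshold in 3 of 15 alternatives.

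**Figure D3:**
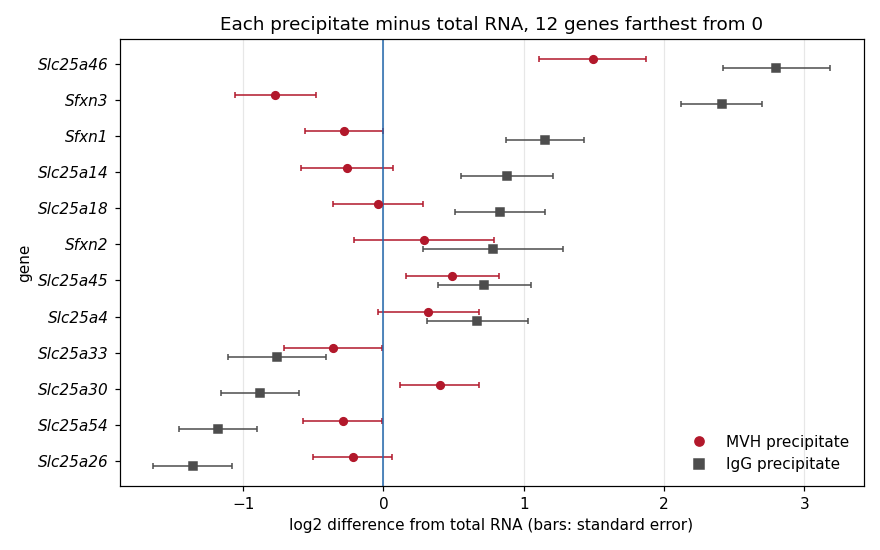
Log2 difference from total RNA of the MVH precipitate (red circles) and the IgG precipitate (grey squares), with bars for the standard error, for the 12 genes farthest from 0. IgG lies farther from 0 than MVH for all 12, which were chosen by the larger of their differences. Over the 46 genes the median size was 0.28 with IgG and 0.22 with MVH. Slc25a46, Slc25a45, Slc25a4 and Sfxn2 have differences above 0 in both precipitates.

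In the comparison of IgG with total RNA there followed Slc25a30 (-0.88 ± 0.28), Slc25a14 (0.88 ± 0.33), Slc25a18 (0.83 ± 0.32), Sfxn2 (0.78 ± 0.50) and Slc25a33 (-0.76 ± 0.35), with limma adjusted p-values of 0.154, 0.215, 0.219, 0.457 and 0.288 in that order. In 9 of the 46 genes both IgG arrays were above the other 4 arrays, and in 7 both were below. The first were Sfxn1, Sfxn3, Slc25a3, Slc25a4, Slc25a5, Slc25a13, Slc25a14, Slc25a18 and Slc25a46. The second were Sfxn4, Slc25a20, Slc25a26, Slc25a30, Slc25a32, Slc25a33 and Slc25a54. These are 19.6% and 15.2% of the genes, beside 14.3% and 20.0% of all probes. The MVH arrays were above the other 4 in 6 genes and below them in 3 (13% and 6.52%, beside 11.4% and 11.5%), and the total RNA arrays were above in 2, Slc25a26 and Slc25a54, and below in 2, Slc25a45 and Slc25a46 (4.35% each, beside 7.14% and 5.38%).

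Of the 11 germ cell markers, 2 (18.2%) were higher with MVH than with IgG and 0 lower in limma, beside 3.82% and 4.15% of all probes. The 2 called were the meiotic gene Sycp3 (1.79 ± 0.40, limma adjusted p = 0.0349) and the spermatogenic glycolysis gene Pgk2 (2.13 ± 0.35, limma adjusted p = 0.0177). At an unadjusted p under 0.05 in limma there were 4 (36.4%), beside 25.5% of all probes. The median of the 11 was 0.17, with 9 positive. Both MVH arrays were above both IgG arrays in 6 (54.5%, beside 29.9% of all probes).

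Markers of Leydig cells were lower with MVH than with IgG. The summed intensity over 6 of 8 markers was 512.4 and 494.2 on the MVH arrays, 3004 and 1888 on the IgG arrays, and 662 and 1134 for total RNA. In limma 4 of 6 genes (66.7%) were lower with MVH and 0 higher, beside 4.15% and 3.82% of all probes. Hsd17b3 and Star had means under 30, no Leydig marker was blank on any array, and Insl3 and Lhcgr were not analysed here. Over 7 peritubular and vascular markers the sums were 550 and 357 on the MVH arrays, 3164 and 1471 on the IgG arrays, and 420 and 514 for total RNA. Acta2 made up most of each sum, with 502 and 295 on the MVH arrays, 3037 and 1388 on the IgG arrays, and 370 and 463 for total RNA. Of 5 tested in limma, 2 (40.0%) were lower with MVH, beside 4.15% of all probes. Sertoli cell markers summed to 4102 and 4009 on the MVH arrays, 8706 and 6786 on the IgG arrays, and 5425 and 5764 for total RNA. Of the 7, 1 (14.3%), Amhr2, was lower with MVH, beside the same 4.15%. Clu and Amhr2 make up most of these sums, and the median difference of the 7 markers between the precipitates was 0.04, with 4 positive and 3 negative. Macrophage and blood markers summed to 65.9 to 89.3 on all arrays, with 0 of 4 called in limma. At an unadjusted p under 0.05 there was 1 (25.0%), beside 25.5% of all probes. Of the peritubular and vascular markers, 5 had a mean under 30. The 2 vascular markers Pecam1 and Cdh5 were blank on at least 1 array and were not tested between the precipitates. The Leydig, Sertoli, peritubular and vascular, and macrophage and blood sums were higher on IgG 1 than on IgG 2. The germ cell sum was higher on IgG 2. Of the 9 carrier and sideroflexin genes with both IgG arrays above the other 4, 7 were higher on IgG 1. The 2 higher on IgG 2 were Sfxn3 and Slc25a46. How many of all probes were higher on IgG 1 was not counted, so the 7 of 9 cannot be set beside a background share. The part of these cell types in the differences of the carrier genes was not tested.

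Related genes of the mitochondrion were drawn from lists. In limma, 23 genes were tested from the carrier family under other symbols and from other mitochondrial transporters. With MVH, 0 were higher and 1 lower than with IgG, with a median of 0.10. There were 6 (26.1%) at an unadjusted p under 0.05 in limma, beside 25.5% of all probes. The 1 gene called is 4.35% of the list, beside 4.15% of all probes called lower. The one was Mtch1, an outer membrane member of the carrier family, with 272 and 144 on the MVH arrays, 864 and 665 on the IgG arrays, and 263 and 264 for total RNA (-1.94 ± 0.35, limma adjusted p = 0.0214). As in Sfxn3, its IgG arrays stood above the other 4. Ucp1, Ucp2 and Ucp3 differed by 0.36, 0.21 and 0.19, and the pyruvate carrier subunit genes Mpc1 and Mpc2 by 0.54 and 0.58. The pore genes of the outer membrane Vdac1, Vdac2 and Vdac3 differed by -0.74, 0.12 and 0.00. These named genes do not span the list, whose 23 differences ran from -1.94 to 1.03, with 15 positive and 8 negative.

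Of 29 genes of protein import, 0 were higher and 1 lower in limma, with a median of -0.05. An unadjusted p under 0.05 in limma was found for 6 (20.7%), beside 25.5% of all probes. The 1 gene called is 3.45% of the list, beside the same 4.15%. The gene was Tomm34, a cytosolic chaperone partner of preproteins (-1.56 ± 0.27, limma adjusted p = 0.0198). Of 32 genes of the citric acid cycle and pyruvate entry, 2 were higher and 2 lower, with a median of -0.18. These are 6.25% each, beside 3.82% and 4.15% of all probes, and 13 genes (40.6%) had an unadjusted p under 0.05, beside 25.5% of all probes. Dld, the dihydrolipoamide dehydrogenase shared by the oxoacid dehydrogenase complexes, was higher by 2.32 ± 0.53 (limma adjusted p = 0.0358), with 120 and 350 on the MVH arrays, 61.2 and 27.5 on the IgG arrays, and 77.2 and 87.1 for total RNA. Idh3b, a subunit of isocitrate dehydrogenase, was higher by 2.16 ± 0.38 (limma adjusted p = 0.0201). Sdhc, a membrane anchor of succinate dehydrogenase, differed by -1.22 ± 0.30 and Mdh1, the cytosolic malate dehydrogenase, by -1.32 ± 0.31 (limma adjusted p = 0.0443 and 0.0394). Of 15 alternatives, Idh3b passed in 11, Mtch1, Tomm34 and Dld in 9 each, and Sdhc and Mdh1 in 8 each. Against total RNA none of these genes passed in either precipitate. Among 261 tested solute carrier genes of other families, 12 were higher and 10 lower with MVH than with IgG (4.6% and 3.83%, beside 3.82% and 4.15% of all probes), with a median of 0.06, which is close to the 0.05 of the mitochondrial carriers and sideroflexins.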

How the data were processed

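The authors deposited linear intensities from 1-colour arrays, with 508 to 1383 of 23473 probes blank per array. Per the labels, aminoallyl aRNA was amplified from the RNA and coupled with Cy5. The protocol text also describes another sample type, which was not used. How the arrays were scanned and scaled is not given in the sources used here. Deposited medians were 30, except 20.8 on IgG 2.

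Symbols came from the platform annotation, and 3947 were updated through RefSeq GRCm38.p6. Probe sequences were not used, so hybridisation of related genes to a probe was not examined. Log2 intensities were centred on each array's median, and 1 model of all 6 arrays was fitted in limma 3.58.1 under R 4.3.3 (lmFit, eBayes, 3 residual degrees of freedom, prior 5.77). Probes listed on all 4 arrays of a comparison were tested, with Benjamini-Hochberg adjustment over all of them. The steps were tested on simulated data. A first simulation, with each probe's own SD, recovered fewer of the most strongly changed probes than had been set as the target, and the SD was then changed to limma's moderated SD, which met it. Either way most probes changed 2-fold were missed, so an uncalled difference of about that size may still be real. Plots used matplotlib 3.10.9 and Python 3.11.15.

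Values on every array are given for genes past the threshold, the 10 largest differences of a comparison, sideroflexins and ADP/ATP carriers. Other genes are named by group. Of the pathway lists (transporters, import, citric acid cycle), genes past the threshold are named. Solute carriers of other families are a comparison set given by counts. Called markers are named only for germ and Sertoli cells, with Acta2 of the peritubular markers, all chosen after their values were seen. Likewise the Ucp, Mpc and Vdac genes were picked with their values known. Members, lists and tests were chosen with earlier results of these data known.

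The alternatives were no centring, quantile normalization, 75th percentile centring, removal of the dimmest 25% of probes, adding 4 before log2, fitting only the 4 arrays compared, a variance trend with robust fitting, averaged or single probes of a gene, the replicate number as a block, and leaving out each array. In each comparison, leaving out an array of the group not compared repeats the fit of only the 4 arrays. Each carrier and sideroflexin gene had a single probe, so averaging the probes of a gene could not change its difference, only its adjusted p. The alternatives counted for a gene are therefore not all separate checks.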

Additional observations from a re-analysis of the deposited data

How the results depend on the processing

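The counts of 2 genes higher and 2 lower with MVH than with IgG became 1 and 1 with no centring and 0 and 0 with only the 4 arrays compared. They were 3 and 4 without the dimmest 25% of probes, on adding 4 before log2 and with a variance trend. Leaving out an array gave 0 to 1 higher and 0 to 3 lower. For MVH against total RNA, the counts were 0 and 0 under every alternative run. For IgG against total RNA, the counts of 0 and 0 became 2 and 0 with quantile normalization, 75th percentile centring and the replicate block, and 3 and 2 without the dimmest probes, on adding 4 and with the variance trend. Leaving out an array gave 0 to 2 higher and 0 lower there. The labels do not say that array numbers pair samples. Deviations of same-numbered arrays correlated at 0.16, 0.16 and 0.1, and with the replicate block 2 genes were higher and 3 lower with MVH than with IgG.

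Over all probes, the counts of 824 and 895 for MVH against IgG became 702 and 121 with no centring, 1492 and 1624 without the dimmest probes, 1454 and 1501 on adding 4, 1507 and 1636 with the variance trend, and 0 and 0 with only the 4 arrays. Leaving out an array gave 0 to 593 and 0 to 819. For MVH against total RNA, counts of 1 and 2 became 14 and 5 with no centring, 5 and 3 with 75th percentile centring, 100 and 23 without the dimmest probes, 72 and 20 on adding 4, 132 and 48 with the variance trend, 2 and 4 with only the 4 arrays, 3 and 1 with the block, and 0 to 9 and 0 to 4 on leaving out an array. For IgG against total RNA, counts of 2 and 0 became 5 and 0 with no centring, 112 and 29 with quantile normalization, 150 and 61 with 75th percentile centring, 773 and 410 without the dimmest probes, 666 and 421 on adding 4, 798 and 455 with the variance trend, 1 and 0 with only the 4 arrays, 123 and 27 with the block, and 0 to 46 and 0 to 12 on leaving out an array. Without centring every difference moved by 0.26 for MVH against IgG and by -0.26 for IgG against total RNA.

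Some differences turned sign on leaving out an array. Slc25a35 ranged from -1.74 without IgG 1, where it passed, to 0.38 without IgG 2 for MVH against IgG. For MVH against total RNA, Sfxn2 ranged from -0.60 to 1.18, Sfxn5 from -0.16 to 0.11, Slc25a4 from -0.16 to 0.81, Slc25a5 from -0.48 to 0.04 and Slc25a33 from -0.76 to 0.03, none past the threshold. Sfxn2 ranged from -0.11 to 1.67 for IgG against total RNA. The cause was not tested for any of these changes. Sfxn2, at 2.1 on WCE 2, lay near the lowest listed value of that array, 2.0. Sfxn4 was dim as well, under the array median of 30 but above the lowest listed values. Low intensities limit what the log2 differences of such genes can show.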
